A study of Homo sapiens with 9 samples.

Results

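The macrophage and monocyte genes described here are 39 genes taken by their symbols, because they mark these cells or are made in quantity by them. Of the 39 genes, 35 had an entry in the expression table of 17369 genes, and Adgre1, Spi1, Vsig4 and Chil3 were not analysed here. Values are FPKM, fragments assigned to a gene scaled by its transcript length and by the mapped fragments of the library. This allows a rough comparison of levels between genes and between tumors. It is rough because very abundant transcripts in 1 tumor lower the FPKM of the other genes there. A gene was tested when it reached 1 FPKM in at least 3 tumors, which 10263 genes did. Of the 35 genes, 34 passed this filter and only Timd4 did not.

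The tumors came from an orthotopic mouse model of anaplastic thyroid cancer, a rapidly fatal form of thyroid cancer. TBP3743 is a murine anaplastic thyroid cancer line that carries thyroid-specific Braf V600E and lacks Trp53. It was derived in B6129SF1 mice, a hybrid strain with C57BL/6 as 1 parent. The original/B6129SF1 group held 3 tumors of original TBP3743 cells in B6129SF1 hosts. The adapted/B6129SF1 group held 3 tumors of adapted TBP3743 cells in the same host strain, and the adapted/C57BL/6 group held 3 tumors of adapted cells in C57BL/6 hosts. Adapted cells were the line recovered after passage round 3 through C57BL/6 mice, so that every adapted tumor grew from 1 passaged population. Hosts were females aged 6 weeks, and received 100000 cells in the left thyroid lobe. Tumors were taken after 14 days. Original cells in C57BL/6 hosts were not among the groups, so cell line and host were varied only in the order given.

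Macrophages in a tumor descend from cells that already lived in the tissue and from blood monocytes that enter it, and both need signals through the receptor CSF1R. Settled, M2-like macrophages carry scavenger and mannose receptors that clear debris and glycoproteins. Monocytes that have just arrived carry LY6C and PLAC8 and lose them as they mature. Anaplastic thyroid cancer is known for dense infiltration by macrophages. The first question was whether tumors of adapted cells held more transcripts of these genes than tumors of original cells, and the second was whether resident, M2-like genes and inflammatory monocyte genes moved alike.

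Tumors of adapted cells had more Fcgr4, which encodes an activating IgG receptor, in both hosts. In the adapted/B6129SF1 group 3 of the 34 genes rose against the original/B6129SF1 group, namely Fcgr4, Lyz1 and Gpnmb. In adapted/C57BL/6 tumors 2 of the 34 rose, Fcgr4 and Slamf9. None of the 34 fell in either comparison. Here a gene rose or fell when the Benjamini-Hochberg adjusted p over all 10263 genes in limma was under 0.05 and the log2 fold change on the log2(FPKM + 1) scale was beyond 1 in size. By the same rule 2.36% of all genes tested rose and 0.857% fell in the adapted/B6129SF1 group, and 2.42% rose and 0.672% fell in the adapted/C57BL/6 group. The calls of Lyz1, Gpnmb and Slamf9, and that of Fcgr4 in adapted/B6129SF1, were each lost when certain single tumors were left out, and the values are given with each gene.

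More of the genes were shifted upward than passed the test. The median log2 fold change of the 34 genes was 0.46 in the adapted/B6129SF1 group, where the median of all genes was -0.03. In the adapted/C57BL/6 group it was 0.21, against -0.03 for all genes. In the adapted/B6129SF1 group 15 of the 34 genes were higher in all 3 tumors than in every original/B6129SF1 tumor and 0 were lower in all 3. Over all genes tested, 13.6% were separated upward in this way and 15.9% downward. In adapted/C57BL/6 tumors 10 of the 34 were separated upward and 0 downward, beside 14.9% and 17.9% of all genes. At an unadjusted p under 0.05 in limma, in either direction, there were 13 of the 34 genes in adapted/B6129SF1 and 10 in adapted/C57BL/6, where 26.5% and 24.4% of all genes tested were. These comparisons share the original/B6129SF1 tumors and are not independent of each other.

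Between the adapted groups none of the 34 genes rose or fell in limma, where 0% of all genes tested rose and 0.0292% fell. At an unadjusted p under 0.05 in limma there were 3 of the 34 genes, beside 6.27% of all genes tested. No gene of the 34 was higher in every adapted/C57BL/6 tumor than in every adapted/B6129SF1 tumor (0 of 34), and 4 were lower, namely Lyz1, Mertk, Csf1r and Tyrobp. Over all genes 6.32% were separated upward and 5.42% downward. The median log2 difference of the 34 genes was -0.07 and that of all genes 0.01.

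**Figure D1:**
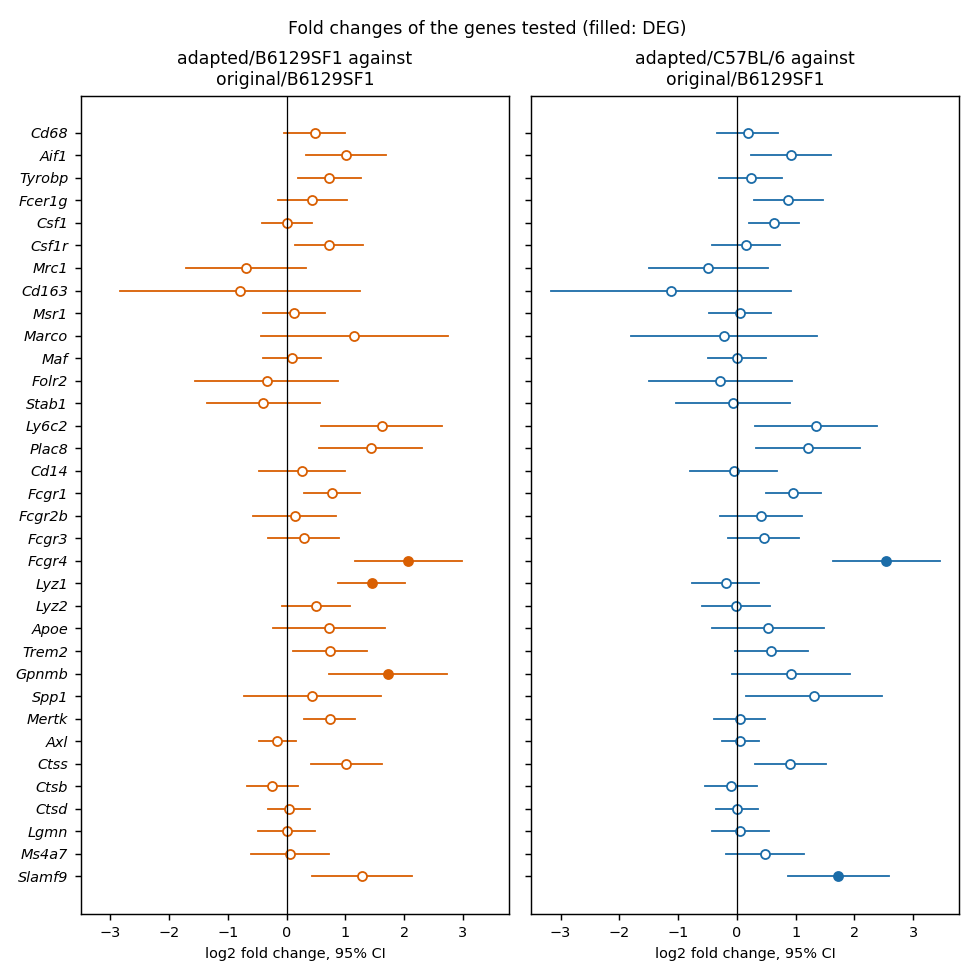
Log2 fold change on the log2(FPKM + 1) scale for the 34 tested macrophage and monocyte genes, in adapted/B6129SF1 and in adapted/C57BL/6 against original/B6129SF1 tumors (3 tumors a group), with lines for the 95% confidence interval of limma and filled points for genes that rose. Fcgr4 lies at 2.07 and 2.54, and Lyz1 at 1.45 in adapted/B6129SF1 but at -0.19 in adapted/C57BL/6.

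Each sample was RNA of a tumor as a whole, so a lower level of a gene can come from fewer cells that express it or from less RNA per cell, and these cannot be told apart. The labels call the samples cancer epithelial cells, but the pan-leukocyte genes Ptprc, Itgb2, Laptm5, Coro1a, Cd53, Cd52, Lcp1 and Itgam summed to between 400 and 1014 FPKM in the 9 tumors. Of the thyroid genes, the transcription factor gene Nkx2-1 was above 1 FPKM in every tumor, whereas Tg, which encodes thyroglobulin, ranged from 0.0153 to 31.0 FPKM. A pair of tumors were rich in skeletal muscle genes, which made up 6.82% of the FPKM of adapted/B6129SF1 replicate 3 and 1.32% of that of adapted/C57BL/6 replicate 1, but at most 0.0278% in the original/B6129SF1 tumors. The 35 genes together took between 1.16% and 2.28% of all FPKM in the 9 tumors, and original/B6129SF1 replicate 3, at 1.60%, was above adapted/B6129SF1 replicates 2 and 3 and adapted/C57BL/6 replicate 2. The FPKM of the 9 tumors summed to between 457983 and 540514. These sums are not sequencing depths, which FPKM do not show.

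The lineage genes were higher in adapted/B6129SF1 tumors in each case without passing the test. Tyrobp encodes DAP12, the adaptor through which many myeloid receptors signal. It measured 194, 268 and 253 FPKM in original/B6129SF1, 359, 402 and 413 FPKM in adapted/B6129SF1 and 329.7, 186 and 349 FPKM in adapted/C57BL/6 tumors. All adapted/B6129SF1 tumors were above all others, and adapted/C57BL/6 replicate 2 was the lowest of the 9. The log2 fold change was 0.72 in adapted/B6129SF1 (SE 0.24, adjusted p = 0.0956) and 0.23 in adapted/C57BL/6 (adjusted p = 0.596).

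Fcer1g encodes the common Fc receptor gamma chain, which carries the signal of the activating Fc receptors. Its levels were 146, 179 and 197 FPKM in original/B6129SF1, 199.9, 219 and 291 FPKM in adapted/B6129SF1 and 403, 209 and 382 FPKM in adapted/C57BL/6 tumors. Every adapted tumor exceeded every original/B6129SF1 tumor. The fold change was larger in adapted/C57BL/6 (log2 fold change 0.88, SE 0.26, adjusted p = 0.0777) than in adapted/B6129SF1 (log2 fold change 0.43, SE 0.26, adjusted p = 0.320), but the direct difference of 0.45 was not significant (95% confidence interval -0.14 to 1.03). Without adapted/C57BL/6 replicate 2, Fcer1g passed the test in adapted/C57BL/6, at 1.18 (adjusted p = 0.0200).

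Aif1, which encodes the actin-binding protein IBA1, was separated upward in both adapted groups. It stood at 26.8, 29.3 and 24.0 FPKM in original/B6129SF1, 35.1, 65.1 and 70.9 FPKM in adapted/B6129SF1 and 61.6, 34.4 and 63.2 FPKM in adapted/C57BL/6 tumors. The change in adapted/B6129SF1 was large but missed the threshold (log2 fold change 1.01, SE 0.30, adjusted p = 0.0734), as did that in adapted/C57BL/6 (log2 fold change 0.92, SE 0.30, adjusted p = 0.101). It passed in adapted/B6129SF1 without adapted/B6129SF1 replicate 1 (adjusted p = 0.0255) and without adapted/C57BL/6 replicate 2 (adjusted p = 0.0477). Cd68, a lysosomal membrane protein of macrophages, measured 90.3, 108 and 110.4 FPKM in original/B6129SF1 and 181, 139 and 116 FPKM in adapted/B6129SF1 tumors. Its adapted/C57BL/6 tumors, at 148, 83.6 and 128 FPKM, spanned the original/B6129SF1 range (log2 fold change 0.18, SE 0.23, adjusted p = 0.675).

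The receptor and its ligand differed in the group in which they were highest. Csf1r, the receptor that macrophages need for survival, was at 59.9, 65.1 and 69.2 FPKM in original/B6129SF1 and 102, 104 and 116 FPKM in adapted/B6129SF1 tumors, which did not overlap. In adapted/C57BL/6 tumors it was at 95.2, 43.8 and 89.2 FPKM, and all 3 of these were below the adapted/B6129SF1 tumors. The changes against original/B6129SF1 were 0.72 (SE 0.25, adjusted p = 0.115) and 0.15 (adjusted p = 0.758), neither of which passed. Csf1, the growth factor that binds it, was at 135, 131 and 116 FPKM in original/B6129SF1, 151, 117 and 118 FPKM in adapted/B6129SF1 and 151, 204 and 252 FPKM in adapted/C57BL/6 tumors. The adapted/C57BL/6 tumors all lay above the original/B6129SF1 tumors (log2 fold change 0.63, SE 0.19, adjusted p = 0.0772), and the adapted/B6129SF1 tumors overlapped them (log2 fold change 0.01, SE 0.19, adjusted p = 0.986).

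**Figure D2:**
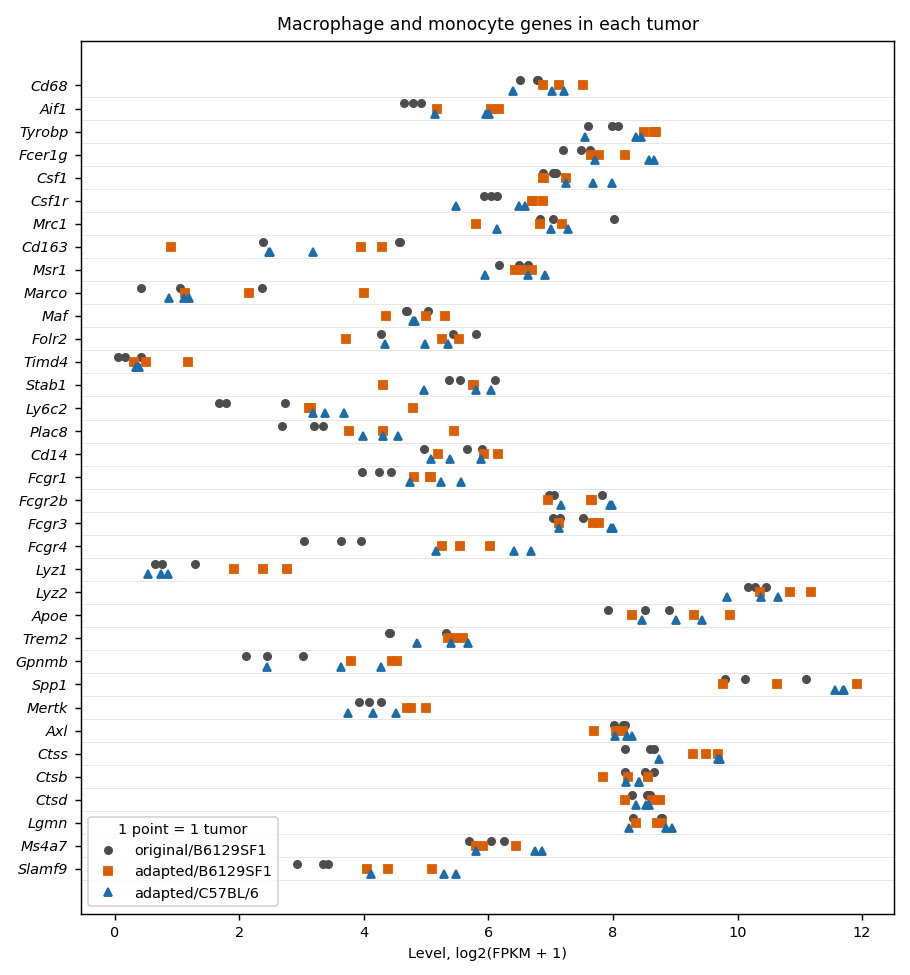
Level of each of the 35 macrophage and monocyte genes in each of the 9 tumors, as log2(FPKM + 1) with the genes in order of role; points are tumors and colours are the 3 groups. Lyz2 and Spp1 lie highest, from 871 to 3884 FPKM over the tumors, whereas Timd4 stays at or below 1.27 FPKM.

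Of the 9 resident or M2-like genes listed, Mrc1, Cd163, Msr1, Marco, Maf, Folr2 and Stab1 were tested. In limma 0 of the 7 rose or fell in any comparison, and 0 had an unadjusted p under 0.05. Of all genes tested, 2.36% rose and 0.857% fell in adapted/B6129SF1, and 2.42% and 0.672% in adapted/C57BL/6. Between the adapted groups 0% rose and 0.0292% fell. An unadjusted p under 0.05 was found for 26.5%, 24.4% and 6.27% of all genes in that order of comparisons. With 7 genes, counts of 0 do not show that the genes were unchanged. The 95% confidence intervals were wide, for Cd163 in adapted/B6129SF1 running from -2.83 to 1.25. None was separated from the original/B6129SF1 tumors in either direction. Over all genes tested, 13.6% were separated upward and 15.9% downward in adapted/B6129SF1, and 14.9% and 17.9% in adapted/C57BL/6. The median log2 fold change of the 7 genes was -0.34 in adapted/B6129SF1 and -0.22 in adapted/C57BL/6, where all genes had -0.03 in both.

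Mrc1 encodes the mannose receptor CD206, the usual marker of M2-like macrophages. It measured 131, 113 and 257 FPKM in original/B6129SF1, 145, 54.6 and 112 FPKM in adapted/B6129SF1 and 155, 69.2 and 128 FPKM in adapted/C57BL/6 tumors. Original/B6129SF1 replicate 3 was far above the others, and adapted/B6129SF1 replicate 2 was the lowest. The groups overlapped, with log2 fold changes of -0.69 (95% confidence interval -1.71 to 0.32) and -0.49 (95% confidence interval -1.50 to 0.53).

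Cd163, the receptor for haemoglobin bound to haptoglobin, varied most within groups. It was at 4.21, 22.8 and 22.6 FPKM in original/B6129SF1, 14.5, 0.861 and 18.6 FPKM in adapted/B6129SF1 and 8.05, 4.60 and 4.54 FPKM in adapted/C57BL/6 tumors, which overlapped. Its log2 fold change in adapted/C57BL/6 of -1.13 had an SE of 0.90 and an adjusted p = 0.490. In adapted/B6129SF1 the estimate of -0.79 became 0.29 when adapted/B6129SF1 replicate 2 was left out.

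The same tumor was the lowest in its group for Folr2 and Stab1. Folr2, the folate receptor of resident macrophages, was at 18.4, 55.0 and 42.1 FPKM in original/B6129SF1, 44.9, 12.1 and 37.2 FPKM in adapted/B6129SF1 and 40.0, 19.2 and 30.5 FPKM in adapted/C57BL/6 tumors. Stab1, a scavenger receptor, was at 45.6, 40.1 and 68.1 FPKM in original/B6129SF1, 52.7, 18.9 and 53.3 FPKM in adapted/B6129SF1 and 64.5, 30.3 and 54.5 FPKM in adapted/C57BL/6 tumors. All 3 groups overlapped for both genes. Without adapted/B6129SF1 replicate 2 the estimates in adapted/B6129SF1 turned from -0.34 to 0.22 for Folr2 and from -0.40 to 0.08 for Stab1.

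Msr1, scavenger receptor A, and Maf, a transcription factor of mature macrophages, were the steadiest. Msr1 ranged from 60.6 to 119 FPKM over the 9 tumors, with changes of 0.12 and 0.06. Maf ranged from 19.5 to 38.7 FPKM, with changes of 0.09 and 0.01. Marco, a scavenger receptor for bacteria and particles, reached 3.46, 1.18 and 15.0 FPKM in adapted/B6129SF1 tumors, where replicate 3 was highest, beside 0.335, 4.12 and 1.07 FPKM in original/B6129SF1 and 1.28, 1.16 and 0.831 FPKM in adapted/C57BL/6. Timd4, a phosphatidylserine receptor of long-lived resident macrophages, stayed low, at 0.345, 0.0358 and 0.123 FPKM in original/B6129SF1, 0.240, 0.415 and 1.27 FPKM in adapted/B6129SF1 and 0.294, 0.312 and 0.268 FPKM in adapted/C57BL/6. Exact permutation tests of Timd4, each two-sided, gave p = 0.2 for adapted/B6129SF1 and p = 0.4 for adapted/C57BL/6 against original/B6129SF1, where the smallest p that 3 against 3 tumors allow is 0.1.

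Of the 3 inflammatory monocyte genes tested, Ly6c2 and Plac8 were separated upward in both adapted groups and Cd14 in neither, and 0 passed the test. Over all genes tested, 13.6% were separated upward in adapted/B6129SF1 and 14.9% in adapted/C57BL/6, and 2.36% and 2.42% rose. Both comparisons use the same original/B6129SF1 tumors. Ly6c2 encodes the LY6C antigen by which inflammatory monocytes are sorted. It was at 5.65, 2.201 and 2.45 FPKM in original/B6129SF1, 7.65, 7.84 and 26.6 FPKM in adapted/B6129SF1 and 9.36, 8.11 and 11.8 FPKM in adapted/C57BL/6 tumors. Every adapted tumor was above every original/B6129SF1 tumor, and adapted/B6129SF1 replicate 3 stood highest. The changes were 1.61 (SE 0.46, adjusted p = 0.0647) and 1.35 (SE 0.46, adjusted p = 0.113). Reads of Ly6c2 and its near copy Ly6c1 can be assigned to either gene, so the level of Ly6c2 is uncertain. Ly6c1 was at 66.3, 68.2 and 65.0 FPKM in original/B6129SF1, 48.4, 55.0 and 114 FPKM in adapted/B6129SF1 and 80.2, 66.4 and 78.5 FPKM in adapted/C57BL/6 tumors, with changes of 0.02 and 0.17.

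Plac8, a cysteine-rich protein of immature monocytes, followed the same order of groups. It was at 9.15, 5.40 and 8.17 FPKM in original/B6129SF1, 12.5, 18.8 and 42.7 FPKM in adapted/B6129SF1 and 14.8, 18.8 and 22.5 FPKM in adapted/C57BL/6 tumors, again with no overlap between original and adapted tumors. The changes were 1.43 (SE 0.39, adjusted p = 0.0577) and 1.21 (SE 0.39, adjusted p = 0.0983). Muscle transcripts were also highest in adapted/B6129SF1 replicate 3, where both genes had their highest values. Without this tumor the changes in adapted/B6129SF1 were 1.06 for Ly6c2 (adjusted p = 0.0853) and 0.96 for Plac8 (adjusted p = 0.0732). In the same fit, both genes passed in adapted/C57BL/6 (Ly6c2 adjusted p = 0.0252, Plac8 adjusted p = 0.0198). Plac8 also passed in adapted/B6129SF1 without adapted/B6129SF1 replicate 1 (adjusted p = 0.0274).

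Cd14 encodes the lipopolysaccharide co-receptor. It was at 49.2, 30.2 and 58.6 FPKM in original/B6129SF1, 70.6, 35.6 and 59.6 FPKM in adapted/B6129SF1 and 32.8, 40.6 and 58.2 FPKM in adapted/C57BL/6 tumors, which overlapped throughout (log2 fold change 0.26, SE 0.32, adjusted p = 0.644 in adapted/B6129SF1). The median of the 3 monocyte genes was 1.43 in adapted/B6129SF1 and 1.21 in adapted/C57BL/6, beside -0.03 for all genes in both.

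Inflammatory monocyte and resident genes were then set against each other within each tumor, as the mean log2(FPKM + 1) of Ly6c2, Plac8 and Cd14 less that of the 8 resident or M2-like genes. This difference was 0.00206, -1.37 and -0.999 in original/B6129SF1 tumors. It was -0.21, 0.82 and 0.47 in adapted/B6129SF1 tumors, and -0.21, 0.52 and 0.56 in adapted/C57BL/6 tumors. In 4 of the 6 adapted tumors the monocyte mean was the higher, but replicate 1 of each adapted group lay below original/B6129SF1 replicate 1, so the groups overlapped. The group means were -0.79 ± 0.71 in original/B6129SF1, 0.36 ± 0.52 in adapted/B6129SF1 and 0.29 ± 0.44 in adapted/C57BL/6 (SD, n = 3). These are descriptions without a test. With only Ly6c2 and Plac8 against Mrc1, Cd163, Folr2 and Stab1, the means were -2.93 ± 0.999, -0.85 ± 1.17 and -1.15 ± 0.56 (SD, n = 3). These narrow lists leave out Cd14, Marco, Msr1 and Maf, whose changes in adapted/B6129SF1 were 0.26, 1.15, 0.12 and 0.09, and also Timd4. Every resident gene they keep had a negative change in both adapted groups. The wider spacing of these means therefore follows in part from the choice of genes.

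**Figure D3:**
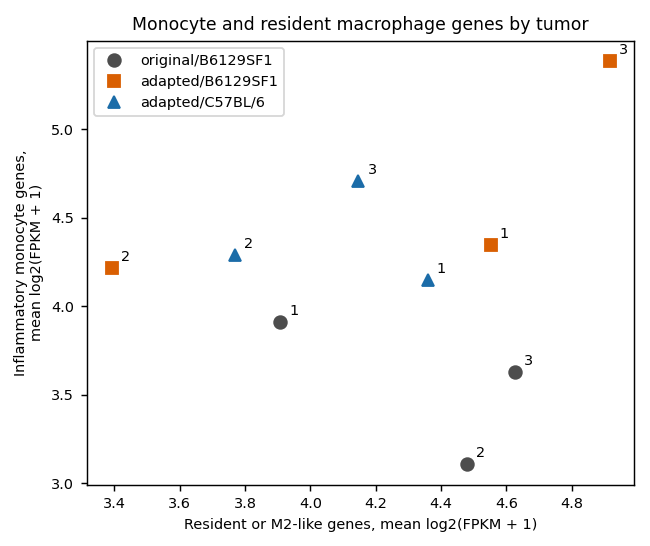
Mean log2(FPKM + 1) of the inflammatory monocyte genes (vertical axis) against that of the resident or M2-like genes (horizontal axis), with 1 point a tumor, marked by group and replicate number. The adapted tumors lie between 4.14 and 5.38 on the vertical axis, above the original/B6129SF1 tumors at 3.11 to 3.91, and the groups overlap on the horizontal axis.

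The Fc-gamma receptors differed among themselves. These receptors bind IgG on antibody-coated cells: Fcgr1, Fcgr3 and Fcgr4 encode activating receptors, and Fcgr2b the inhibitory one. Fcgr4, which binds IgG2 subclasses in mice, was at 11.4, 7.21 and 14.5 FPKM in original/B6129SF1, 37.1, 45.7 and 64.0 FPKM in adapted/B6129SF1 and 102, 34.7 and 84.0 FPKM in adapted/C57BL/6 tumors. The lowest adapted tumor, adapted/C57BL/6 replicate 2, was still above the highest original/B6129SF1 tumor. Fcgr4 rose in both groups (adapted/B6129SF1 log2 fold change 2.07, SE 0.40, adjusted p = 0.0201, adapted/C57BL/6 log2 fold change 2.54, SE 0.40, adjusted p = 0.00839). The direct difference between the adapted groups was 0.48, with a 95% confidence interval of -0.44 to 1.39.

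The call in adapted/C57BL/6 was kept on leaving out each of the 9 tumors in turn and under each of the 8 other alternatives. The call in adapted/B6129SF1 was near the threshold. Its adjusted p was between 0.0501 and 0.0595 without any 1 of the original/B6129SF1 tumors or without adapted/B6129SF1 replicate 2 or 3, with fold changes for Fcgr4 between 1.82 and 2.27. It was 0.0666 when no filter on low values was applied.

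Fcgr1, the high-affinity IgG receptor, moved less. It was at 17.9, 14.6 and 20.6 FPKM in original/B6129SF1, 32.5, 27.1 and 32.8 FPKM in adapted/B6129SF1 and 36.7, 25.6 and 46.1 FPKM in adapted/C57BL/6 tumors, and every adapted tumor was above every original/B6129SF1 tumor. In adapted/C57BL/6 the adjusted p of 0.0304 passed but the log2 fold change of 0.96 did not reach 1. Without adapted/C57BL/6 replicate 2 it did, at 1.18. In adapted/B6129SF1 the change was 0.77 (SE 0.21, adjusted p = 0.0561).

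Fcgr2b and Fcgr3 were far more abundant than Fcgr4 in original/B6129SF1 tumors and overlapped between all groups. Fcgr2b was at 132, 125 and 224 FPKM in original/B6129SF1, 201, 123 and 199 FPKM in adapted/B6129SF1 and 247, 143 and 251 FPKM in adapted/C57BL/6 tumors. Fcgr3 was at 130, 141 and 183 FPKM, 204, 139 and 219 FPKM and 254, 139 and 249 FPKM in the same groups. Neither passed (Fcgr2b log2 fold change 0.42, SE 0.31, adjusted p = 0.457; Fcgr3 log2 fold change 0.46, SE 0.27, adjusted p = 0.329, both adapted/C57BL/6). The sequences of Fcgr2b and Fcgr3 are much alike, so reads may have been split between them and their separate levels are uncertain.

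Set against Fcgr2b in the same tumor, a ratio chosen after the values were seen, Fcgr4 differed between original and adapted tumors without overlap. Fcgr4 per Fcgr2b was 0.0860, 0.0576 and 0.0645 in original/B6129SF1, 0.184, 0.372 and 0.321 in adapted/B6129SF1 and 0.412, 0.243 and 0.334 in adapted/C57BL/6 tumors. Fcgr1 per Fcgr2b was likewise 0.135, 0.117 and 0.0920 in original/B6129SF1, and 0.161, 0.221 and 0.164 in adapted/B6129SF1 and 0.149, 0.180 and 0.183 in adapted/C57BL/6 tumors. Fcgr3 per Fcgr2b stayed near 1, with group means of 0.975 ± 0.157, 1.08 ± 0.0638 and 0.998 ± 0.0304 (SD, n = 3). For Fcgr4 and for Fcgr1 per Fcgr2b, two-sided exact permutation tests of each adapted group against original/B6129SF1 gave p = 0.1, the smallest that 3 against 3 tumors allow, and an adjusted p of 0.225 over the 9 tests of these ratios.

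**Figure D4:**
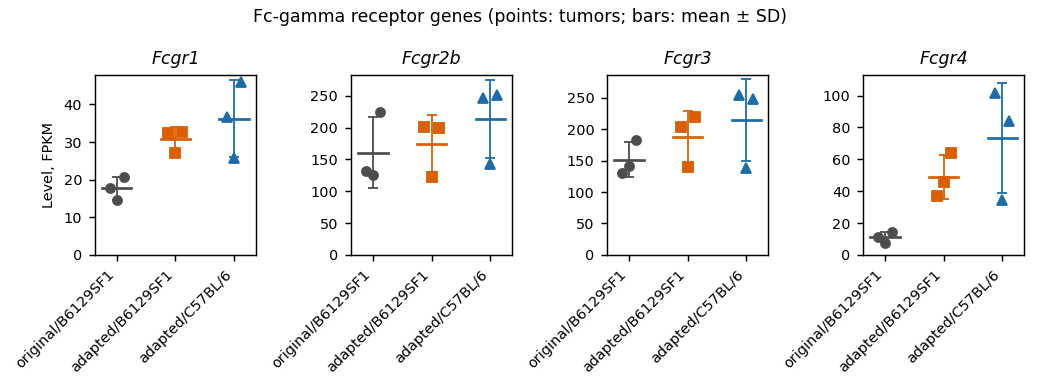
Level in FPKM of Fcgr1, Fcgr2b, Fcgr3 and Fcgr4 in each tumor by group; points are tumors and bars show the mean ± SD (n = 3). Fcgr4 goes from 11.0 ± 3.65 in original/B6129SF1 to 48.9 ± 13.7 in adapted/B6129SF1 and 73.4 ± 34.7 in adapted/C57BL/6, whereas the Fcgr2b and Fcgr3 groups overlap.

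Of the lysozymes, which split bacterial cell walls, Lyz1 separated the adapted groups. Lyz1 was at 0.692, 1.45 and 0.573 FPKM in original/B6129SF1, 4.21, 2.75 and 5.79 FPKM in adapted/B6129SF1 and 0.669, 0.456 and 0.801 FPKM in adapted/C57BL/6 tumors. The 3 adapted/B6129SF1 tumors were above the 6 others. Besides these 3, only original/B6129SF1 replicate 2 reached 1 FPKM, so Lyz1 entered the test through the group in which it was highest. Lyz1 rose in adapted/B6129SF1 (log2 fold change 1.45, SE 0.25, adjusted p = 0.0134) and not in adapted/C57BL/6 (log2 fold change -0.19, SE 0.25, adjusted p = 0.691). The direct difference, adapted/C57BL/6 less adapted/B6129SF1, was -1.64 with an unadjusted p of 0.000123 in limma, but over all genes it did not pass (adjusted p = 0.210). The call in adapted/B6129SF1 was lost without original/B6129SF1 replicate 1 (adjusted p = 0.0509) or replicate 3 (adjusted p = 0.0583).

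Lyz2, the lysozyme of macrophages and neutrophils, was among the most abundant of the 35 genes. It was at 1145, 1408 and 1242 FPKM in original/B6129SF1, 1838, 1319 and 2314 FPKM in adapted/B6129SF1 and 1321, 913 and 1608 FPKM in adapted/C57BL/6 tumors. The groups overlapped (log2 fold change 0.50, SE 0.26, adjusted p = 0.254 in adapted/B6129SF1). Lyz1 and Lyz2 are near copies of each other and reads can be assigned to either, so the values of Lyz1, the far lower of the pair, are uncertain.

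Lipid-associated macrophage genes encode proteins of lipid uptake and lysosomes. Gpnmb, a lysosomal glycoprotein that is also made by other cells, was at 4.44, 7.11 and 3.33 FPKM in original/B6129SF1, 20.8, 22.1 and 12.9 FPKM in adapted/B6129SF1 and 4.43, 18.4 and 11.4 FPKM in adapted/C57BL/6 tumors. Adapted/B6129SF1 tumors were all above the original/B6129SF1 tumors, and adapted/C57BL/6 replicate 1 was within them. Gpnmb rose in adapted/B6129SF1 (log2 fold change 1.73, SE 0.44, adjusted p = 0.0468) but lost its call on leaving out 1 of 7 of the 9 tumors, namely each original/B6129SF1 and each adapted/B6129SF1 tumor and adapted/C57BL/6 replicate 3. There the adjusted p ran from 0.0574 to 0.142. With the other alternatives counted, the call was lost in 10 of 17. In adapted/C57BL/6 the change was 0.92 (SE 0.44, adjusted p = 0.240). With both muscle-rich tumors left out it was 1.43 and passed (adjusted p = 0.0344).

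Trem2, a lipid-sensing receptor that signals through DAP12, was at 20.3, 39.1 and 20.3 FPKM in original/B6129SF1, 42.4, 39.7 and 47.1 FPKM in adapted/B6129SF1 and 41.2, 27.8 and 49.8 FPKM in adapted/C57BL/6 tumors. The adapted/B6129SF1 tumors lay just above the highest original/B6129SF1 tumor (log2 fold change 0.74, SE 0.28, adjusted p = 0.131). Without original/B6129SF1 replicate 2, that highest tumor, Trem2 passed in adapted/B6129SF1 (1.05, adjusted p = 0.0384). Apoe, the lipid carrier apolipoprotein E, was at 242, 476 and 364 FPKM, 629.8, 316 and 940.2 FPKM and 688, 352 and 516 FPKM in the 3 groups in the same order, and they overlapped (log2 fold change 0.72, SE 0.42, adjusted p = 0.308 in adapted/B6129SF1).

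Spp1, which encodes osteopontin and is expressed by tumor cells as well as macrophages, varied widely within groups. It was at 1117, 889 and 2189 FPKM in original/B6129SF1, 3884, 1588 and 872 FPKM in adapted/B6129SF1 and 3324, 3026 and 3337 FPKM in adapted/C57BL/6 tumors. The adapted/C57BL/6 tumors were alike and all above the original/B6129SF1 tumors (log2 fold change 1.32, SE 0.51, adjusted p = 0.160). In adapted/B6129SF1, replicate 1 was the highest of the 9 tumors and replicate 3 the lowest.

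Mertk and Axl encode receptors through which macrophages take up dying cells. Mertk was at 14.2, 18.3 and 15.9 FPKM in original/B6129SF1, 31.0, 24.9 and 26.2 FPKM in adapted/B6129SF1 and 21.9, 16.7 and 12.3 FPKM in adapted/C57BL/6 tumors, and the adapted/B6129SF1 tumors were above all others. The change in adapted/B6129SF1 was 0.73 (SE 0.19, adjusted p = 0.0520). The difference of adapted/C57BL/6 less adapted/B6129SF1 tumors was -0.69 on the log2 scale, with an unadjusted p of 0.00628 in limma and an adjusted p = 0.602. Axl, which tumor cells also express, ranged from 205 to 314 FPKM over the 9 tumors and changed by -0.16 in adapted/B6129SF1 and 0.06 in adapted/C57BL/6.

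Of the lysosomal proteases only Ctss was separated from the original/B6129SF1 tumors. Cathepsin S, its product, trims the invariant chain of MHC class II. Ctss was at 290.4, 384 and 403 FPKM in original/B6129SF1, 718, 624 and 825 FPKM in adapted/B6129SF1 and 827, 427 and 842 FPKM in adapted/C57BL/6 tumors, with no overlap. It missed the threshold in both groups (adapted/B6129SF1 log2 fold change 1.01, SE 0.27, adjusted p = 0.0521, adapted/C57BL/6 log2 fold change 0.91, SE 0.27, adjusted p = 0.0772). It passed in both without adapted/C57BL/6 replicate 2 (adjusted p = 0.0150 and 0.0162), and in adapted/B6129SF1 when only those groups were fitted (adjusted p = 0.0329).

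The other proteases were even. Ctsb, cathepsin B, ranged from 227 to 403 FPKM over the 9 tumors, Ctsd, cathepsin D, from 292 to 429 FPKM, and Lgmn, the asparaginyl endopeptidase legumain, from 303 to 494 FPKM. Their changes were -0.24, 0.04 and -0.00 in adapted/B6129SF1, and -0.11, 0.01 and 0.06 in adapted/C57BL/6. Their adjusted p in limma lay between 0.455 and 0.995. These proteases are made by many cell types.

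Slamf9, a myeloid surface receptor of the SLAM family, rose in adapted/C57BL/6 tumors. It was at 9.13, 9.75 and 6.63 FPKM in original/B6129SF1, 15.6, 33.2 and 19.9 FPKM in adapted/B6129SF1 and 43.7, 16.3 and 37.9 FPKM in adapted/C57BL/6 tumors, and every adapted tumor was above every original/B6129SF1 tumor. The change in adapted/C57BL/6 passed (log2 fold change 1.73, SE 0.38, adjusted p = 0.0316) and that in adapted/B6129SF1 did not (log2 fold change 1.28, SE 0.38, adjusted p = 0.0734). The direct difference of 0.45 (95% confidence interval -0.41 to 1.30) did not pass. The adapted/C57BL/6 call was lost in 8 of 17 alternatives. Among them were the fits without any 1 of the original/B6129SF1 tumors or without adapted/C57BL/6 replicate 1 or 3 (adjusted p between 0.0664 and 0.127), and without both muscle-rich tumors (adjusted p = 0.0886). In adapted/B6129SF1, Slamf9 passed without adapted/C57BL/6 replicate 2 (adjusted p = 0.0298). Ms4a7, a tetraspan protein of macrophages, ranged from 50.7 to 115 FPKM and overlapped between groups (log2 fold change 0.48, SE 0.29, adjusted p = 0.358 in adapted/C57BL/6).

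**Figure D5:**
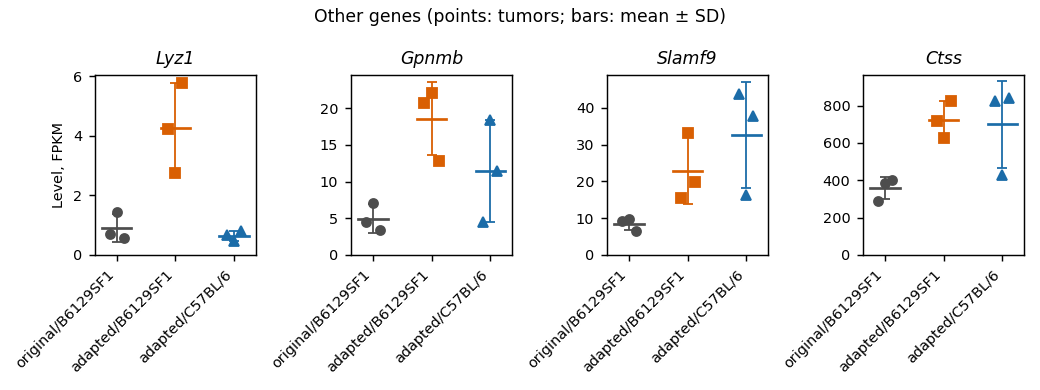
Level in FPKM of Lyz1, Gpnmb, Slamf9 and Ctss in each tumor by group; points are tumors and bars show the mean ± SD (n = 3). Lyz1 is higher in the 3 adapted/B6129SF1 tumors (2.76 to 5.79) than in the 6 others (0.46 to 1.45), whereas all 6 adapted tumors exceed the original/B6129SF1 tumors for Slamf9 and Ctss.

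Adapted/C57BL/6 replicate 2 had the lowest value of its group for each of the lineage genes and Csf1r, and a ratio within the tumor does not depend on a shift common to both of its genes. The ratios to Csf1r were chosen after the values were seen and carry no test. Csf1r was lower in every adapted/C57BL/6 than in every adapted/B6129SF1 tumor, and a lower denominator raises a ratio. As levels, Fcer1g, Ctss, Fcgr4 and Slamf9 each overlapped between the adapted groups, so the ratios do not show that these genes differ by host. Fcer1g per Csf1r was 2.44, 2.75 and 2.85 in original/B6129SF1, 1.95, 2.10 and 2.50 in adapted/B6129SF1 and 4.23, 4.78 and 4.29 in adapted/C57BL/6 tumors. The 3 adapted/C57BL/6 tumors were close to each other on this scale and above all 6 tumors grown in B6129SF1 hosts. Ctss per Csf1r had the same form, at 4.85, 5.90 and 5.82 in original/B6129SF1, 7.01, 5.99 and 7.09 in adapted/B6129SF1 and 8.68, 9.75 and 9.44 in adapted/C57BL/6 tumors. Fcgr4 per Csf1r was 0.190, 0.111 and 0.209 in original/B6129SF1, 0.362, 0.439 and 0.550 in adapted/B6129SF1 and 1.07, 0.792 and 0.941 in adapted/C57BL/6 tumors, so that the 3 groups did not overlap. Slamf9 per Csf1r was 0.459, 0.372 and 0.425 in adapted/C57BL/6 tumors and at most 0.319 in the others. Tyrobp per Csf1r did not set the groups apart, at 3.23, 4.12 and 3.65 in original/B6129SF1, 3.50, 3.87 and 3.55 in adapted/B6129SF1 and 3.46, 4.23 and 3.91 in adapted/C57BL/6 tumors. Mrc1 per Csf1r was highest in original/B6129SF1, at 2.18, 1.74 and 3.71, against 1.42, 0.525 and 0.967 in adapted/B6129SF1 and 1.63, 1.58 and 1.43 in adapted/C57BL/6 tumors.

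Other genes set against Csf1r gave a different picture for the monocyte genes. Ly6c2 per Csf1r was 0.0943, 0.0338 and 0.0353 in original/B6129SF1, 0.0747, 0.0754 and 0.228 in adapted/B6129SF1 and 0.0983, 0.185 and 0.133 in adapted/C57BL/6 tumors, and Plac8 per Csf1r was 0.153, 0.0830 and 0.118, 0.122, 0.180 and 0.367 and 0.156, 0.429 and 0.252 in the same groups. On this scale adapted/B6129SF1 tumors overlapped the original/B6129SF1 tumors for both genes, and adapted/C57BL/6 tumors stayed above them, by little in replicate 1. Fcgr1 and Fcgr3 per Csf1r were also highest in adapted/C57BL/6. Fcgr1 per Csf1r was 0.385, 0.585 and 0.516 there and at most 0.317 in the other tumors, and Fcgr3 per Csf1r was 2.67, 3.17 and 2.79 there and at most 2.64 in the others. Csf1r itself was lower in every adapted/C57BL/6 tumor than in every adapted/B6129SF1 tumor, and its part in these ratios was not tested. Fcgr2b, Cd68 and Gpnmb per Csf1r overlapped between original/B6129SF1 and adapted/C57BL/6 tumors.

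Further genes of the same programmes were examined next. Of 20 other resident or M2-like genes tested, 0 rose or fell in limma in any of the 3 comparisons, and 2 had an unadjusted p under 0.05 in each comparison with original/B6129SF1 and 1 between the adapted groups, beside 26.5%, 24.4% and 6.27% of all genes in that order of comparisons. The median change was 0.09 in adapted/B6129SF1 and 0.17 in adapted/C57BL/6. The most abundant were the complement genes C1qa, C1qb and C1qc, and Arg1, which encodes arginase 1. C1qa was at 352, 541 and 453 FPKM in original/B6129SF1, 612, 566 and 742 FPKM in adapted/B6129SF1 and 766, 324 and 709 FPKM in adapted/C57BL/6 tumors. Arg1 ranged from 104 to 637 FPKM and was lowest in adapted/B6129SF1 replicate 2.

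Of 14 other inflammatory monocyte genes tested, 4 rose in adapted/B6129SF1, namely Ccr2, Gbp2, Irf8 and Ms4a4c, and 2 in adapted/C57BL/6, Gbp2 and Irf8. The shares of all genes tested that rose were 2.36% and 2.42%. Ccr2 encodes the chemokine receptor by which monocytes leave the marrow. It was at 21.1, 18.8 and 17.9 FPKM in original/B6129SF1, 26.0, 50.9 and 50.4 FPKM in adapted/B6129SF1 and 18.6, 22.6 and 24.9 FPKM in adapted/C57BL/6 tumors. The adapted/B6129SF1 tumors were all above the original/B6129SF1 range (log2 fold change 1.04, SE 0.24, adjusted p = 0.0342), and adapted/C57BL/6 replicate 1 lay within it (log2 fold change 0.18, SE 0.24, adjusted p = 0.702). The direct difference between the adapted groups was -0.86 (adjusted p = 0.602). It passed without adapted/B6129SF1 replicate 1, at -1.18 (adjusted p = 0.0456). The Ccr2 call in adapted/B6129SF1 was lost in 10 of 17 alternatives, with an adjusted p up to 0.109. Among them were the fits without any 1 of the original/B6129SF1 tumors, without adapted/B6129SF1 replicate 2 (0.88) or 3 (0.89) and without adapted/C57BL/6 replicate 3.

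Ms4a4c, a surface gene of LY6C monocytes, rose in adapted/B6129SF1 (log2 fold change 1.58, SE 0.39, adjusted p = 0.0415) and its call was lost in 10 of 17 alternatives, with an adjusted p up to 0.121. Those included the fits without each original/B6129SF1 and each adapted/B6129SF1 tumor in turn and without adapted/C57BL/6 replicate 1. Irf8, a transcription factor of monocytes and dendritic cells, was at 8.71, 9.12 and 10.5 FPKM in original/B6129SF1, 19.4, 19.6 and 21.3 FPKM in adapted/B6129SF1 and 22.2, 18.1 and 29.8 FPKM in adapted/C57BL/6 tumors. It rose in both (adapted/B6129SF1 log2 fold change 1.02, SE 0.16, adjusted p = 0.0109, adapted/C57BL/6 log2 fold change 1.20, SE 0.16, adjusted p = 0.00527). In adapted/B6129SF1 its fold change was just above 1, and the call was lost in 4 of 17 alternatives. Among them, the change came to between 0.97 and 1.00 without original/B6129SF1 replicate 1 or 2 or adapted/B6129SF1 replicate 3. Gbp2, a GTPase induced by interferon in many cell types, rose in both groups under all alternatives (adapted/B6129SF1 log2 fold change 1.78, SE 0.30, adjusted p = 0.0122, adapted/C57BL/6 log2 fold change 2.77, SE 0.30, adjusted p = 0.00285). The median change of the 14 genes was 0.55 in adapted/B6129SF1 and 0.18 in adapted/C57BL/6.

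Genes of M1-like activation were followed as well, of which 11 were tested. In adapted/B6129SF1, 1 rose and 1 fell, beside 2.36% and 0.857% of all genes tested. In adapted/C57BL/6, 2 rose and 1 fell, beside 2.42% and 0.672% of all genes tested. Between the adapted groups 0 rose or fell. An unadjusted p under 0.05 in limma was found for 4 of the 11 in adapted/B6129SF1, 8 in adapted/C57BL/6 and 5 between the adapted groups. Of all genes tested, 26.5%, 24.4% and 6.27% had one. The median changes of the 11 were 0.37, 0.61 and 0.51 in that order, beside -0.03, -0.03 and 0.01 for all genes. Cxcl9, a chemokine that attracts T cells, was at 15.0, 10.7 and 10.1 FPKM in original/B6129SF1, 38.6, 111 and 124 FPKM in adapted/B6129SF1 and 140, 108 and 188 FPKM in adapted/C57BL/6 tumors. It rose in both groups (adapted/B6129SF1 log2 fold change 2.69, SE 0.41, adjusted p = 0.00933, adapted/C57BL/6 log2 fold change 3.49, SE 0.41, adjusted p = 0.00305). Cxcl10, another such chemokine, rose in adapted/C57BL/6 (log2 fold change 1.84, SE 0.42, adjusted p = 0.0377) but not in adapted/B6129SF1 (log2 fold change 0.58, SE 0.42, adjusted p = 0.415). The direct difference of 1.27 had an adjusted p of 0.682 in limma. Ptgs2, which encodes cyclooxygenase 2, fell in both groups (adapted/B6129SF1 log2 fold change -2.39, SE 0.48, adjusted p = 0.0215, adapted/C57BL/6 log2 fold change -2.24, SE 0.48, adjusted p = 0.0296). The Cxcl9 calls held in all alternatives. The Ptgs2 calls were lost in 7 of 17 alternatives in adapted/B6129SF1 and 8 of 17 in adapted/C57BL/6. Among them were the fits without original/B6129SF1 replicate 1 or 3, without adapted/B6129SF1 replicate 2 or 3 (adapted/B6129SF1), or without any 1 of the adapted/C57BL/6 tumors (adapted/C57BL/6). In these fits the adjusted p was between 0.0555 and 0.105. The Cxcl10 call was lost in 8 of 17 alternatives. Those included the fits without original/B6129SF1 replicate 1 or 3 or any 1 of the adapted/C57BL/6 tumors, with an adjusted p between 0.0528 and 0.132. Tumor cells and stroma also express these genes.

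Of 15 other lipid-associated genes tested, 0 rose or fell in limma in any comparison, and 5 in adapted/B6129SF1, 3 in adapted/C57BL/6 and 2 between the adapted groups had an unadjusted p under 0.05, of which all genes had 26.5%, 24.4% and 6.27%. The most abundant, Ctsl, Cd63, Lgals3 and Cd9, were all lower on average in the adapted groups, but the list was mixed. Of the 15 genes, 7 had a positive change in adapted/B6129SF1 and 6 in adapted/C57BL/6. The changes ran from -0.84 to 2.23 and from -0.73 to 0.96. The mean log2(FPKM + 1) of the list was 5.41 in original/B6129SF1, 5.67 in adapted/B6129SF1 and 5.34 in adapted/C57BL/6. Cd9, a tetraspanin also made by tumor cells, came nearest, at -0.84 in adapted/B6129SF1 (adjusted p = 0.0318). Of 10 tested genes of macrophage growth and differentiation, which again include Irf8, 2 rose in adapted/B6129SF1 and 1 in adapted/C57BL/6. Among all genes tested 2.36% and 2.42% rose. Cebpa, a transcription factor of the myeloid lineage, was at 5.55, 8.85 and 11.0 FPKM in original/B6129SF1, 18.2, 16.4 and 20.6 FPKM in adapted/B6129SF1 and 12.7, 8.59 and 10.8 FPKM in adapted/C57BL/6 tumors, and rose in adapted/B6129SF1 (log2 fold change 1.07, SE 0.22, adjusted p = 0.0243). That call was lost in 7 of 17 alternatives, among them the fits without original/B6129SF1 replicate 1 (0.83) or any 1 of the adapted/B6129SF1 tumors (adjusted p between 0.0509 and 0.0636). Il34, the second ligand of CSF1R, was at 97.5, 100.1 and 125 FPKM in original/B6129SF1, 77.0, 60.0 and 52.5 FPKM in adapted/B6129SF1 and 70.8, 88.3 and 74.5 FPKM in adapted/C57BL/6 tumors, lower in every adapted tumor than in every original/B6129SF1 tumor. Its change of -0.77 in adapted/B6129SF1 had an adjusted p of 0.0253 in limma but was smaller than 1 in size. Csf2ra, on the same list, went the other way in that group, at 0.93 (adjusted p = 0.0345), also smaller than 1.

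Markers of other leukocytes were followed by list. Beside each count below, 2.36% of all genes tested rose in adapted/B6129SF1 and 2.42% in adapted/C57BL/6. The summed level of the 8 pan-leukocyte genes was 400 to 506 FPKM in original/B6129SF1, 634 to 859 FPKM in adapted/B6129SF1 and 530 to 1014 FPKM in adapted/C57BL/6 tumors. Their median change was 0.67 in adapted/B6129SF1 and 0.76 in adapted/C57BL/6, and 1 of the 8, Cd52, rose in adapted/B6129SF1 (log2 fold change 1.12, SE 0.29, adjusted p = 0.0491). The Cd52 call was lost in 12 of 17 alternatives, with an adjusted p up to 0.134, among them the fits without any 1 of the original/B6129SF1 tumors, adapted/B6129SF1 replicate 2 or 3, or adapted/C57BL/6 replicate 1 or 3. The 7 T cell genes tested summed to 3.80 to 5.74 FPKM in original/B6129SF1, 6.69 to 32.3 FPKM in adapted/B6129SF1 and 21.3 to 31.3 FPKM in adapted/C57BL/6 tumors. Of these, Cd3g rose in both groups (adapted/B6129SF1 log2 fold change 1.50, SE 0.36, adjusted p = 0.0393, adapted/C57BL/6 log2 fold change 1.95, SE 0.36, adjusted p = 0.0170) and Cd2 in adapted/C57BL/6 (log2 fold change 1.35, SE 0.33, adjusted p = 0.0471). Of 4 natural killer cell genes tested 1 rose in adapted/C57BL/6, Gzma (log2 fold change 1.67, SE 0.30, adjusted p = 0.0160). Of 11 dendritic cell genes 5 were tested, and 1 rose in both groups, Clec9a. It was at 0.416, 0.154 and 0.236 FPKM in original/B6129SF1, 6.15, 3.46 and 2.75 FPKM in adapted/B6129SF1 and 2.99, 4.71 and 3.52 FPKM in adapted/C57BL/6 tumors. Clec9a was below 1 FPKM in every original/B6129SF1 tumor, so it passed the filter on low values only through the adapted tumors. The same held for other tested genes of the T cell, natural killer cell and dendritic cell lists, among them Cd3d, Klrk1 and Zbtb46. The Clec9a calls held in all alternatives. That of Gzma was lost in 4 of 17, among them the fits without original/B6129SF1 replicate 2 or 3 or adapted/C57BL/6 replicate 3 (adjusted p up to 0.0715). The Cd3g calls were lost in 13 of 17 alternatives in adapted/B6129SF1 and 7 of 17 in adapted/C57BL/6, and that of Cd2 in 12 of 17, in each case among them the fits without any 1 of the original/B6129SF1 tumors (adjusted p up to 0.113, 0.0716 and 0.146).

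Neutrophils share Lyz2 and Fcgr4 with macrophages. Of 12 neutrophil genes 6 were tested, and 0 rose or fell in limma in any comparison, with an unadjusted p under 0.05 for 2 in adapted/B6129SF1, 0 in adapted/C57BL/6 and 1 between the adapted groups, where all genes had 26.5%, 24.4% and 6.27%. S100a8 was at 11.4, 16.4 and 14.7 FPKM in original/B6129SF1, 9.59, 4.15 and 14.6 FPKM in adapted/B6129SF1 and 21.1, 10.2 and 14.5 FPKM in adapted/C57BL/6 tumors, with no order between the groups. S100a9 was at 11.2, 5.02 and 13.2 FPKM, 5.50, 1.55 and 3.31 FPKM and 22.8, 11.3 and 7.43 FPKM in the same groups. Its adapted/C57BL/6 tumors were all above its adapted/B6129SF1 tumors. The change of S100a9 in adapted/B6129SF1 was -1.29 (SE 0.48, adjusted p = 0.1315 in limma), and those tumors overlapped the original/B6129SF1 tumors. The median change of the 6 was -0.38 in adapted/B6129SF1 and -0.10 in adapted/C57BL/6. The summed level of the 12, most of it Mmp9, ran from 95.7 to 170 FPKM in original/B6129SF1, 82.5 to 387 FPKM in adapted/B6129SF1 and 75.4 to 241 FPKM in adapted/C57BL/6 tumors. None of the B cell genes passed the filter on low values, and their summed level was at most 1.46 FPKM. Mast cell genes were highest in adapted/B6129SF1 replicate 3, summing to 96.9 FPKM beside at most 32.3 FPKM in the 8 other tumors, and 0 of the 6 tested rose or fell in limma, with an unadjusted p under 0.05 for 3 in adapted/B6129SF1, 0 in adapted/C57BL/6 and 4 between the adapted groups. Their median change was 0.88 in adapted/B6129SF1 and -0.27 in adapted/C57BL/6. The part of these cells in the macrophage and monocyte values was not tested.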

How the data were processed

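Each of the 9 samples was total RNA of 1 orthotopic tumor, sequenced in bulk, and groups were taken from the sample titles, which number 3 biological replicates a group. The deposited table holds FPKM, which the authors made from reads aligned to the mouse genome mm10. The submitters' processing notes name FastQC, HISAT2, Cuffnorm and Cuffdiff, with no versions. Organism labels read Homo sapiens, whereas the build and gene symbols are those of mouse. Columns of the table without a sample numbered 0, and no 2 tumors had identical values. No batch was given in the labels. Sequencing depth is not known from FPKM, so no counting intervals are given.

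FPKM were transformed as log2(FPKM + 1), and a gene entered the fit when 3 or more tumors reached 1 FPKM. A model of the 3 groups was fitted to all 9 tumors in limma 3.58.1 (R 4.3.3) with a mean-variance trend. P-values were two-sided and Benjamini-Hochberg adjusted over all 10263 genes. A gene was called at an adjusted p under 0.05 and a log2 fold change beyond 1 in size, the thresholds of the study for differential expression. The study tested these groups with count-based software, which FPKM do not allow. Each script that tests many genes was tested on simulated data. Exact permutation tests were run in scipy 1.17.1 (Python 3.11.15), and plots drawn in matplotlib 3.10.9. All 39 listed genes could be named. Of the further lists, genes called in any comparison and otherwise at most the 4 with the highest mean FPKM were named. The exceptions, named after their values were seen, were Il34, Csf2ra and the thyroid genes, and the ratios between genes were also chosen then. The genes, their lists and the alternatives were chosen with earlier results of these data known. Same-numbered tumors came from different animals, and their departures from the group means correlated, over the pairs, at values that ran from -0.388 to 0.614, so the numbers were not taken to pair the tumors. Alternatives were other filters, a pseudocount of 0.1, 2 other scalings, only the groups compared, a replicate block, leaving out both muscle-rich tumors and leaving out each tumor. From the M1-like list 1 gene is not reported here and was left out of its counts. The 4 listed genes without an entry in the table used, and all gene sequences and coordinates, were not analysed here.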

Additional observations from a re-analysis of the deposited data

How the results depend on the processing

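Over 102 pairs of gene and comparison, 1734 values were recomputed. The call and direction were kept in 1678 of them, counting as kept 77 changes of sign between uncalled values that moved by less than 1 SE. In 26 a call was lost, in 16 gained, and 14 uncalled values changed sign by more. No gene of the 34 was called lower under any alternative. The 3 genes called higher in adapted/B6129SF1 became 1 without the filter on low values and between 0 and 6 when 1 tumor was left out: 0 without original/B6129SF1 replicate 1 or 3, 1 without adapted/B6129SF1 replicate 2 or 3, and 6 without adapted/C57BL/6 replicate 2. The 2 called higher in adapted/C57BL/6 became 1 without the filter, 4 with only the groups compared, 1 with the replicate block (a paired fit, in which Slamf9 had an adjusted p = 0.0816), and between 1 and 5 when 1 tumor was left out, with 5 without adapted/C57BL/6 replicate 2. The inflammatory monocyte less resident difference against original/B6129SF1, 1.15 in adapted/B6129SF1 and 1.08 in adapted/C57BL/6, was 2.08 and 1.77 with the narrow lists. Those lists leave out Cd14 and keep only resident genes with negative changes in both adapted groups. Between adapted groups the difference over the full lists was -0.07. It was 0.00167 with a pseudocount of 0.1, 0.23 without both muscle-rich tumors, and -0.36 to 0.18 when 1 tumor was left out. When 1 tumor was left out, adapted/B6129SF1 values ran from -0.64 to 0.084 for Stab1, -0.14 to 0.94 for Spp1, -1.52 to 0.29 for Cd163 and -0.79 to 0.22 for Folr2. In adapted/C57BL/6, Mertk ran from -0.15 to 0.24, and was -0.15 without both muscle-rich tumors. Between adapted groups the ranges were -0.16 to 0.64 for Stab1, -0.55 to 0.29 for Ly6c2, -0.60 to 0.25 for Plac8, -0.27 to 0.22 for Ctss, -0.50 to 0.41 for Folr2 and -0.26 to 0.21 for Msr1. Without both muscle-rich tumors Ly6c2 was 0.31 and Plac8 0.40. Of the further genes, Clec9a, Irf8, Cd3g and Cd2 changed sign between adapted groups when 1 tumor was left out, with ranges of -0.27 to 0.20, -0.00445 to 0.34, -0.018 to 0.80 and -0.25 to 0.47 in that order. The cause of these changes was not tested. FPKM give no depth, so precision rests on 3 tumors a group.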
